A study of Mus musculus with 9 samples.

Results

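Transcripts of the FoxO factors Foxo1, Foxo3 and Foxo4 were measured in cells sorted from the dissected hypaxial somite region of the mouse embryo. So were those of 7 genes known as FoxO targets (Klf2, Klf4, Fbxo32, Trim63, Cited2, Txnip and Irs2). Every probe set annotated to 1 of these 10 genes alone was taken and read separately, which gave 21 probe sets of 45037 tested and 10 genes of 18193. A further probe set carried the symbols of Foxo3 and of another gene and was not counted. The genes were listed by name, with earlier results of these arrays known.

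The cells came from interlimb somites at embryonic day 9.5 and formed 3 groups of 3 arrays each. PAX3-FKHR/GFP cells were GFP positive and carried a Pax3-GFP allele and, on the other Pax3 allele, a knocked-in PAX3-FKHR sequence with IRES-nlacZ, switched on by the ubiquitous PGK-Cre transgene. In PAX3-FKHR the DNA binding part of PAX3 is joined to the activation domain of FKHR, an older name of FOXO1. GFP/+ cells were GFP positive and had the Pax3-GFP allele over a normal Pax3 allele. GFP- cells were GFP negative cells sorted from the same region, and their labels give no Pax3 genotype. Both GFP positive groups thus shared 1 Pax3 allele replaced by GFP. The study's methods describe the samples of a group as biological replicates, with tissue of 1 genotype pooled before sorting. They do not state whether each sample came from a pool of its own. A p-value therefore covers the spread between samples of pooled tissue and not between single embryos. The labels name interlimb somites as the tissue but forelimb buds in the dissociation step, and the tissue was taken as given.

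FoxO proteins are forkhead transcription factors that act at the end of the insulin and growth factor pathway. Akt, the kinase activated by PI3K, phosphorylates them and keeps them out of the nucleus. When that signal falls they enter the nucleus and switch on genes of cell cycle arrest, stress resistance, insulin feedback and protein breakdown. In adult skeletal muscle they are best known for inducing the ubiquitin ligases Fbxo32 and Trim63 during wasting. Arrays measure transcripts, and neither the place nor the phosphorylation of a FoxO protein was measured.

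Forkhead factors bind cores of the kind GTAAACA and ATAAACA, so the 250 bases before the start of each gene were searched for both on either strand (TGTTTAC and TGTTTAT as reverse complements). RefSeq windows of build GRCm38.p6 were found for 8 of the 10 genes, and 3 of these 8 held a match. Of all 32851 windows of this length 3.17% held the first core, 4.16% the second and 7.1% either of them. The 3 windows with a match are shown so that the surroundings of each match can be read. They run 5′ to 3′ in the sense of the gene, and capitals mark the match. Klf4 lies at chr4:55532476-55532725 on the minus strand, Trim63 at chr4:134314870-134315119 on the plus strand and Txnip at chr3:96557707-96557956 on the plus strand.
Klf4: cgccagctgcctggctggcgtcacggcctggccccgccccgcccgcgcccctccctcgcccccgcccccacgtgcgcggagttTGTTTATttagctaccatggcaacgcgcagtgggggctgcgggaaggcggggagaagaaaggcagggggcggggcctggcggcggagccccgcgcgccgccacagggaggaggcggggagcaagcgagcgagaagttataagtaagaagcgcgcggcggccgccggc
Trim63: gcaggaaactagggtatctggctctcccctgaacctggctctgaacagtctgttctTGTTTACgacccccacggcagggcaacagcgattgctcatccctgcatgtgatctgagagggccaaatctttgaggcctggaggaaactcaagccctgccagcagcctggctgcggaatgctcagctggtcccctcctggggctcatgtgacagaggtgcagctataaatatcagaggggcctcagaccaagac
Txnip: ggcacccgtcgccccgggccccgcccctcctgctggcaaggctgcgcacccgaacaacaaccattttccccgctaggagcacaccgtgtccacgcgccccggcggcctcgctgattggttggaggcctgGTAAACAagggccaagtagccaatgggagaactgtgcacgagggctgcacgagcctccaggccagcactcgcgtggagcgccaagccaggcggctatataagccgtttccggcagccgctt
The match ended 160 bases before the start in Klf4, 187 bases in Trim63 and 114 bases in Txnip. The windows of Foxo1, Foxo3, Klf2, Cited2 and Irs2 held neither of these letter strings. A match of this kind is a description of the sequence, and whether a FoxO factor binds there was not tested.

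All values are log2 expression values, so a difference of 1 is a doubling, and errors after ± are standard errors of the limma fit unless given as SD. A probe set was called higher or lower at an adjusted p under 0.05 and a log2 difference of at least 0.5 in size, which is 1.41-fold. Array medians lay between 4.63 and 4.68. Of the 21 probe sets, 13 lay above the array median on all 9 arrays, 3 on some and 5 on none.

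The labels were checked on Pax3 and on marker lists. The 3 Pax3 probe sets lay 17.0 to 93.4-fold higher in GFP/+ than in GFP- cells. PAX3-FKHR/GFP cells were below GFP/+ cells on all 3, by -0.79 to -0.91 on the log2 scale. They were still 9.82 to 53.3-fold above GFP- cells on these probe sets. The study describes the mouse Pax3 gene as silent in PAX3-FKHR/GFP embryos, and what the probe sets read there was not tested. Of the 11 dermomyotome markers measured, 11 were called higher in GFP/+ than in GFP- cells. Pax3 is 1 of the 11, and its call follows from the sort. Also called higher were 6 of 6 neural crest and 5 of 6 sclerotome markers. Of the 13 markers of differentiated muscle 8 were called higher and 1, Myh7, lower. Among all genes 1.92% were called higher and 5.05% lower in this comparison. Called lower in GFP/+ cells were 7 of 7 primitive erythroid, 7 of 8 surface ectoderm, 7 of 12 endothelial and 2 of 8 leukocyte markers. With the fusion, 13 of 13 markers of differentiated muscle and 3 of 6 sclerotome markers were called lower than in GFP/+ cells. Of the 11 dermomyotome markers 4 were called higher and 2 lower. The 2 were Sim1 and Pax3, whose normal allele these cells lack. Called higher with the fusion were also 1 of 6 neural crest markers, Tfap2b, and 1 of 7 primitive erythroid markers, Hbb-y. No endothelial, leukocyte or surface ectoderm marker was called. Here 1.31% of all genes were called higher and 0.715% lower.

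The comparison of PAX3-FKHR/GFP with GFP/+ cells set cells that carry the fusion beside cells that carry a normal Pax3 allele. The PAX3-FKHR/GFP cells have the fusion in place of that allele. Gain of the fusion and loss of normal Pax3 therefore cannot be told apart, and "with the fusion" names the genotype only. Klf4, a Krüppel-like factor that restrains proliferation in epithelia and is one of the reprogramming factors, was the member with the largest difference. Its 2 probe sets were 2.28-fold and 1.84-fold higher in PAX3-FKHR/GFP cells. Fbxo32 was higher by 0.64 on the log2 scale on 1 of its 3 probe sets, which lay below the array median in GFP/+ cells. In all, 3 of the 21 probe sets were called higher and 0 lower, where 0.884% of all tested probe sets were called higher and 0.473% lower. Without the limit on size 4 of the 21 had an adjusted p under 0.05, against 1.78% of all. The PAX3-FKHR/GFP arrays lay wholly above the GFP/+ arrays in 8 of the 21 and wholly below them in 1, against 6.40% and 6.72% of all probe sets. The median log2 difference was 0.05 over the 21 probe sets and 0.00 over all probe sets.

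**Figure D1:**
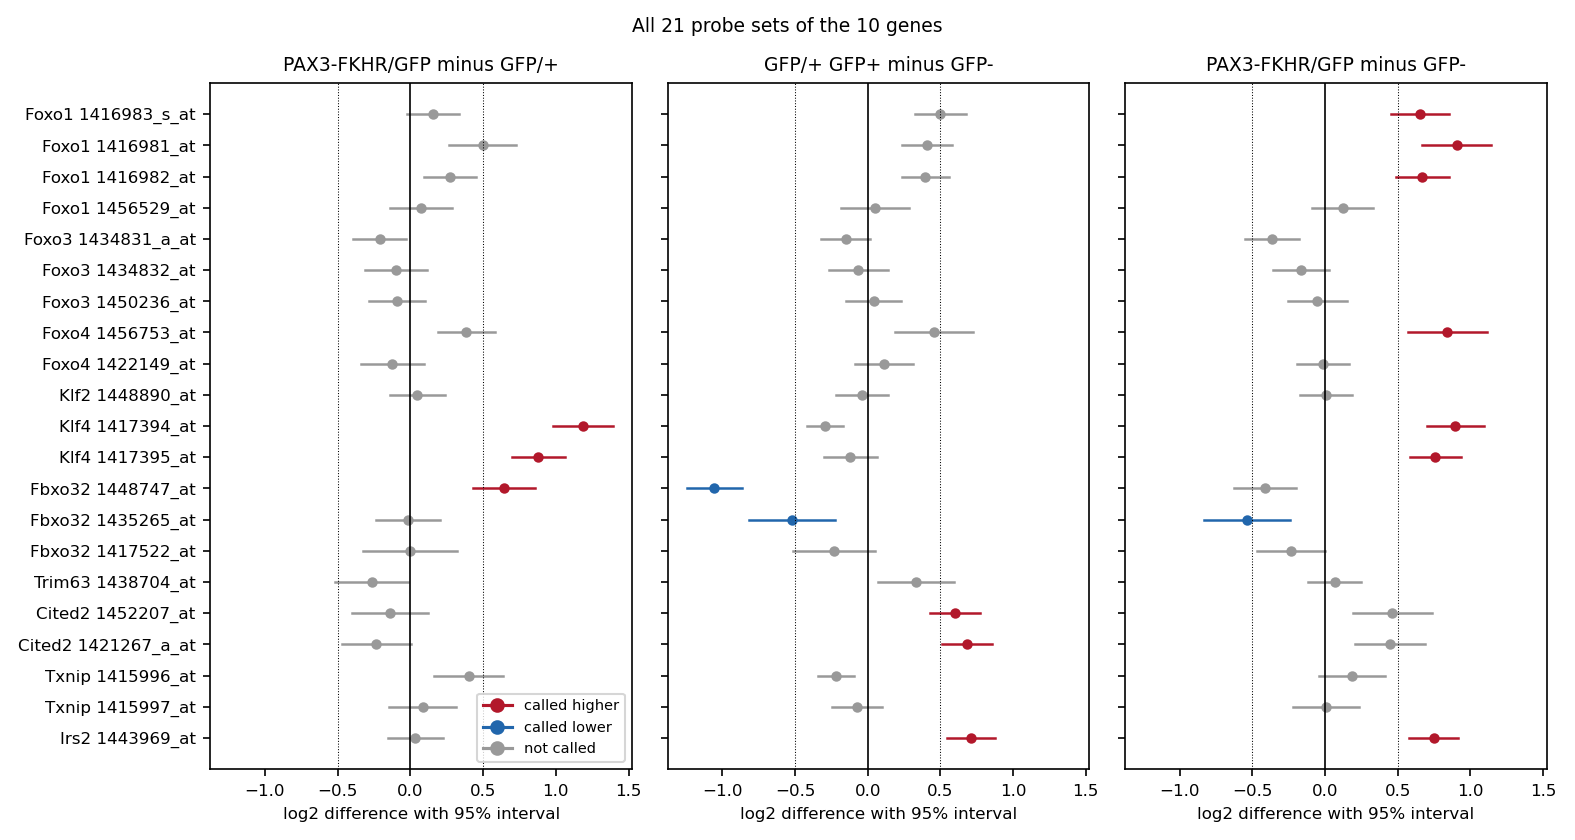
Log2 difference (x axis) of each of the 21 probe sets (rows) in the 3 comparisons, with the 95% interval of the limma fit; red marks a call higher in the first-named group, blue a call lower, grey no call, and dotted lines the limit of 0.5. The calls with PAX3-FKHR were both probe sets of Klf4 and 1 of Fbxo32, while Irs2 and Cited2 were called higher in GFP/+ than in GFP- cells.

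Foxo1, the mouse counterpart of the gene whose human product supplies the FKHR part of the fusion, showed 1 order of the groups on its 3 bright probe sets, with PAX3-FKHR/GFP highest and GFP- lowest. Probe set 1416981_at read 7.69, 8.06 and 8.03 on the PAX3-FKHR/GFP arrays, 7.43, 7.48 and 7.37 on the GFP/+ arrays and 6.89, 7.12 and 7.06 on the GFP- arrays. Probe set 1416982_at of Foxo1 read 7.46, 7.38 and 7.56 in PAX3-FKHR/GFP cells, 7.15, 7.23 and 7.21 in GFP/+ cells and 6.68, 6.85 and 6.87 in GFP- cells. Probe set 1416983_s_at of Foxo1 read 8.17, 8.23 and 8.36 in PAX3-FKHR/GFP cells, 8.16, 8.07 and 8.08 in GFP/+ cells and 7.75, 7.49 and 7.56 in GFP- cells. No array of 1 group overlapped another group on any of these 3 probe sets, although the lowest PAX3-FKHR/GFP array and the highest GFP/+ array were 8.17 and 8.16 on 1416983_s_at.

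Between PAX3-FKHR/GFP and GFP/+ cells Foxo1 was not called. The difference was 0.496 ± 0.105 on 1416981_at (adjusted p = 0.0429), just under the limit of 0.5. It was 0.27 ± 0.08 on 1416982_at (adjusted p = 0.178) and 0.15 ± 0.08 on 1416983_s_at (adjusted p = 0.585). Foxo1 1416981_at stood close to both limits. It was called without PAX3-FKHR/GFP replicate 1, the lowest of its group (0.62, adjusted p = 0.00631), and by the local pooled error test, the kind the study's methods name (0.60 between medians, adjusted p = 0.000338). Leaving out any of the other 5 arrays gave an adjusted p of 0.157 to 0.276, and 3 further alternatives, the replicate block, no intensity trend and median centring, gave 0.051 to 0.0518. The fourth Foxo1 probe set, 1456529_at, stayed between 3.84 and 4.18 on all 9 arrays. Whether any Foxo1 probe set reads the fusion transcript was not tested.

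GFP/+ cells held more Foxo1 transcript than GFP- cells on all 3 bright probe sets, at sizes under the limit. The differences were 0.4997 ± 0.077 on 1416983_s_at (adjusted p = 0.00231), 0.41 ± 0.076 on 1416981_at (adjusted p = 0.0072) and 0.40 ± 0.072 on 1416982_at (adjusted p = 0.00658). Set against GFP- cells, PAX3-FKHR/GFP cells were called higher on the same 3 probe sets, by 0.65 ± 0.089, 0.90 ± 0.108 and 0.67 ± 0.083 (adjusted p = 0.000543, 0.000191 and 0.000262). These comparisons share their arrays and are not independent of each other. In sorted populations of this kind, fewer cells that express a gene and less RNA per cell cannot be told apart.

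Foxo3, the family member known from oocyte and muscle biology, showed small differences that were not called. Its brightest probe set, 1434831_a_at, read 7.16, 7.21 and 7.34 in PAX3-FKHR/GFP cells, 7.53, 7.43 and 7.39 in GFP/+ cells and 7.72, 7.51 and 7.57 in GFP- cells. The PAX3-FKHR/GFP arrays lay below both other groups, and the GFP/+ and GFP- arrays overlapped. The difference of PAX3-FKHR/GFP cells was -0.21 ± 0.083 against GFP/+ cells (adjusted p = 0.391) and -0.36 ± 0.084 against GFP- cells (adjusted p = 0.0192), and neither was called. In 4 of the 6 fits with 1 array left out, the adjusted p against GFP- cells was 0.053 to 0.1045. GFP/+ cells differed from GFP- cells by -0.15 ± 0.075 (adjusted p = 0.316). Foxo3 probe sets 1434832_at and 1450236_at differed by -0.16 to 0.04 over the 3 comparisons, with overlapping arrays in each.

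Foxo4, an X-linked FoxO factor, followed the order of Foxo1 on its brighter probe set, 1456753_at, only. The dim probe set 1422149_at averaged 4.22 in PAX3-FKHR/GFP, 4.34 in GFP/+ and 4.23 in GFP- cells, and its groups overlapped in every comparison. Probe set 1456753_at read 7.70, 7.90 and 7.91 in PAX3-FKHR/GFP cells, 7.54, 7.38 and 7.43 in GFP/+ cells and 6.75, 6.97 and 7.28 in GFP- cells. The groups did not overlap, and the GFP- arrays were the most scattered, with an SD of 0.267 against 0.0819 in GFP/+ cells. The difference of PAX3-FKHR/GFP from GFP/+ cells was 0.38 ± 0.088 (adjusted p = 0.0631). GFP/+ cells were 0.46 ± 0.119 above GFP- cells (adjusted p = 0.0438), under the limit. Without GFP- replicate 3 this was 0.60 (adjusted p = 0.00838) and called, and without any of the other 5 arrays the adjusted p was 0.119 to 0.185, with a difference as low as 0.33. PAX3-FKHR/GFP cells were 1.79-fold above GFP- cells (0.84 ± 0.123, adjusted p = 0.000908), a call that was lost when the dim second Foxo4 probe set was averaged in (0.41).

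**Figure D2:**
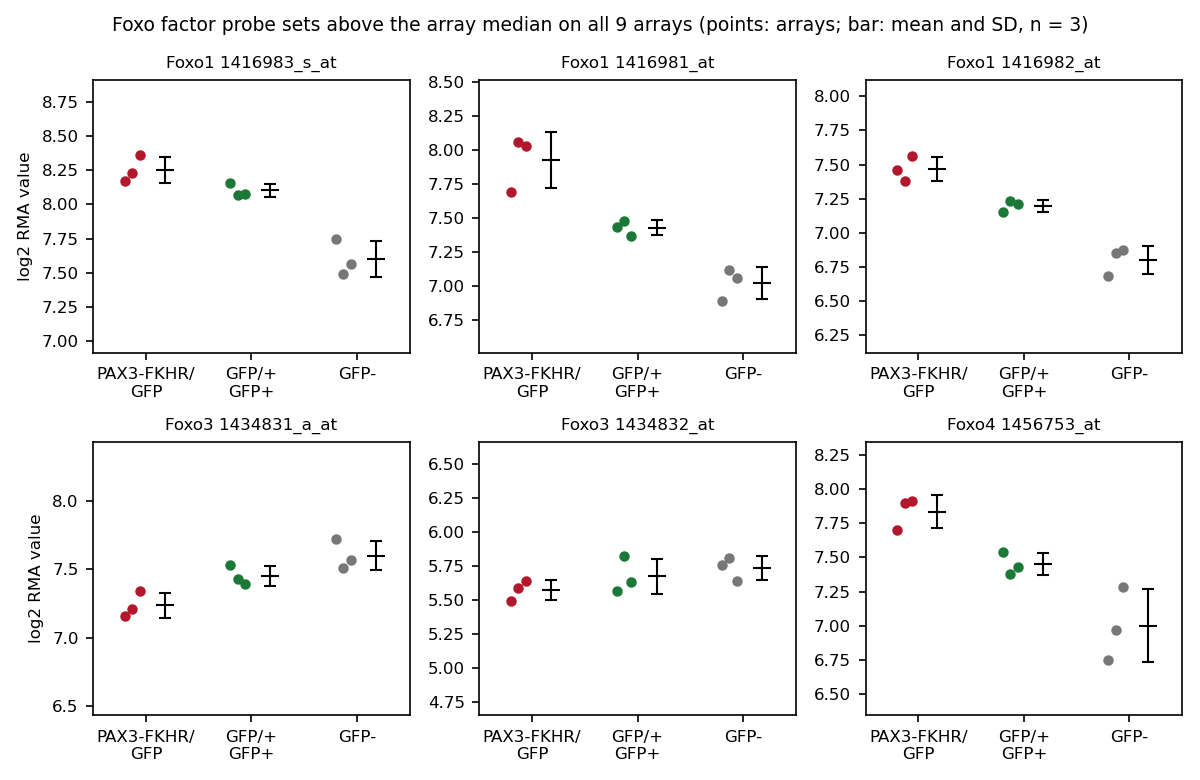
Log2 RMA values (y axis, each panel spanning 2 units) of the Foxo1, Foxo3 and Foxo4 probe sets that lay above the array median on all 9 arrays, with points for the 3 arrays of each group (x axis) and a bar for the mean and SD. On the 3 Foxo1 probe sets and Foxo4 the PAX3-FKHR/GFP arrays lay highest and the GFP- arrays lowest, whereas Foxo3 1434831_a_at was lowest in PAX3-FKHR/GFP cells.

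Among the targets, the Krüppel-like factor Klf4 was called higher with the fusion, and Klf2 was not called in any comparison. Klf4 probe set 1417394_at read 9.11, 9.34 and 9.43 in PAX3-FKHR/GFP cells, 8.09, 8.09 and 8.14 in GFP/+ cells and 8.37, 8.39 and 8.43 in GFP- cells. Probe set 1417395_at of Klf4 read 7.65, 7.72 and 7.72 in PAX3-FKHR/GFP cells, 6.80, 6.92 and 6.72 in GFP/+ cells and 6.88, 6.87 and 7.06 in GFP- cells. On both probe sets each PAX3-FKHR/GFP array lay above each array of the other groups. Against GFP/+ cells the excess of Klf4 with the fusion was 1.19 ± 0.092 (95% interval 0.98 to 1.39, adjusted p = 7.03e-05) and 0.88 ± 0.082 (0.70 to 1.06, adjusted p = 0.000225). With each array left out in turn the first difference ran between 1.12 and 1.28 and the second between 0.83 and 0.93, and both were called each time.

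Against GFP- cells Klf4 was also called higher in PAX3-FKHR/GFP cells, by 0.90 ± 0.089 and 0.76 ± 0.079 (adjusted p = 4.49e-05 and 6.36e-05). GFP/+ cells were below GFP- cells by a smaller step, -0.29 ± 0.055 on 1417394_at without overlap (adjusted p = 0.00811) and -0.12 ± 0.081 on 1417395_at with overlap (adjusted p = 0.471), and neither was called. Klf2, a Foxo1 target in lymphocytes that also serves endothelial quiescence, read 7.43, 7.57 and 7.50 in PAX3-FKHR/GFP cells, 7.55, 7.33 and 7.48 in GFP/+ cells and 7.60, 7.49 and 7.39 in GFP- cells. The 3 groups overlapped. The difference of PAX3-FKHR/GFP from GFP/+ cells in Klf2 was 0.05 with a 95% interval of -0.14 to 0.24 (adjusted p = 0.929), and that of GFP/+ from GFP- cells was -0.04 with an interval of -0.22 to 0.14 (adjusted p = 0.843). Endothelial markers averaged 5.72 to 5.77 on the GFP/+ arrays and 6.35 to 6.44 on the GFP- arrays, and their part in the Klf2 level was not tested.

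Fbxo32, the F-box subunit of a muscle ubiquitin ligase also called atrogin-1, was lowest in GFP/+ cells. Probe set 1448747_at read 4.66, 4.91 and 4.75 in PAX3-FKHR/GFP cells, 4.08, 4.18 and 4.14 in GFP/+ cells and 5.25, 5.07 and 5.24 in GFP- cells, with no overlap between any groups. Fbxo32 was called higher with the fusion, PAX3-FKHR/GFP cells lying above GFP/+ cells by 0.64 ± 0.096 (95% interval 0.43 to 0.86, adjusted p = 0.0055). It was called lower in GFP/+ than in GFP- cells (-1.06 ± 0.084, adjusted p = 2.22e-05). PAX3-FKHR/GFP cells were below GFP- cells by -0.41 ± 0.098 (adjusted p = 0.0216), which was not called. In 4 of the 6 fits with 1 array left out, the adjusted p of this last difference was 0.062 to 0.105. The GFP/+ arrays lay below their array medians on this probe set, and no detection calls were used, so Fbxo32 was not shown to be above background in GFP/+ cells and no fold is given. Muscle markers averaged 6.09 to 6.23 on the PAX3-FKHR/GFP arrays and 7.60 to 7.70 on the GFP/+ arrays, and erythroid markers 6.09 to 6.13 on the GFP/+ arrays and 9.97 to 10.07 on the GFP- arrays. Their part in the Fbxo32 and Klf4 differences was not tested.

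The other Fbxo32 probe sets gave less. Probe set 1435265_at read 4.04, 3.78 and 3.94 in PAX3-FKHR/GFP cells, 3.94, 3.83 and 4.04 in GFP/+ cells and 4.27, 4.33 and 4.78 in GFP- cells. Both GFP positive groups were called lower than GFP- cells on it, by -0.53 ± 0.134 (adjusted p = 0.0287) in PAX3-FKHR/GFP cells and -0.52 ± 0.133 (adjusted p = 0.0388) in GFP/+ cells, and both calls were lost without GFP- replicate 2 or 3 and without any 1 array of the GFP positive group. Probe set 1435265_at did not separate PAX3-FKHR/GFP from GFP/+ cells (-0.01), and 1417522_at was dim throughout. Averaged over its 3 probe sets, Fbxo32 differed by 0.21 between PAX3-FKHR/GFP and GFP/+ cells (adjusted p = 0.259), so that this call rested on 1448747_at alone. Trim63, the other muscle ligase (MuRF1), stayed below the array median on all 9 arrays, between 3.26 and 3.93, and was not called in any comparison (-0.27, 0.33 and 0.07).

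Txnip, the thioredoxin-interacting protein that restrains glucose uptake, had its lowest values on the GFP/+ arrays, as Klf4 1417394_at and Fbxo32 1448747_at did. Probe set 1415996_at read 8.45, 8.70 and 8.88 in PAX3-FKHR/GFP cells, 8.22, 8.32 and 8.29 in GFP/+ cells and 8.47, 8.48 and 8.53 in GFP- cells. The GFP/+ arrays lay below all others, and the PAX3-FKHR/GFP arrays spread around the GFP- arrays. The difference of PAX3-FKHR/GFP from GFP/+ cells in Txnip was 0.40 ± 0.107 (95% interval 0.16 to 0.64, adjusted p = 0.127), which gave no call. PAX3-FKHR/GFP replicate 1 was the lowest of its group here, as it was for Foxo4, Klf4 and Fbxo32 1448747_at, and leaving it out gave 0.52 (adjusted p = 0.0213) and a call. Leaving out any of the other 5 arrays gave no call, with an adjusted p of 0.319 to 0.462 and a difference as low as 0.30. GFP/+ cells were below GFP- cells by -0.22 ± 0.056 (adjusted p = 0.0404), under the limit. With each array left out in turn the adjusted p of this difference was 0.0751 to 0.135. In 6 of 7 alternatives on all arrays it was 0.0501 to 0.482. The second Txnip probe set, 1415997_at, averaged 4.50 in PAX3-FKHR/GFP, 4.41 in GFP/+ and 4.49 in GFP- cells, below the array median on all arrays but 1, and its groups overlapped in every comparison (0.08, -0.08 and 0.01).

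**Figure D3:**
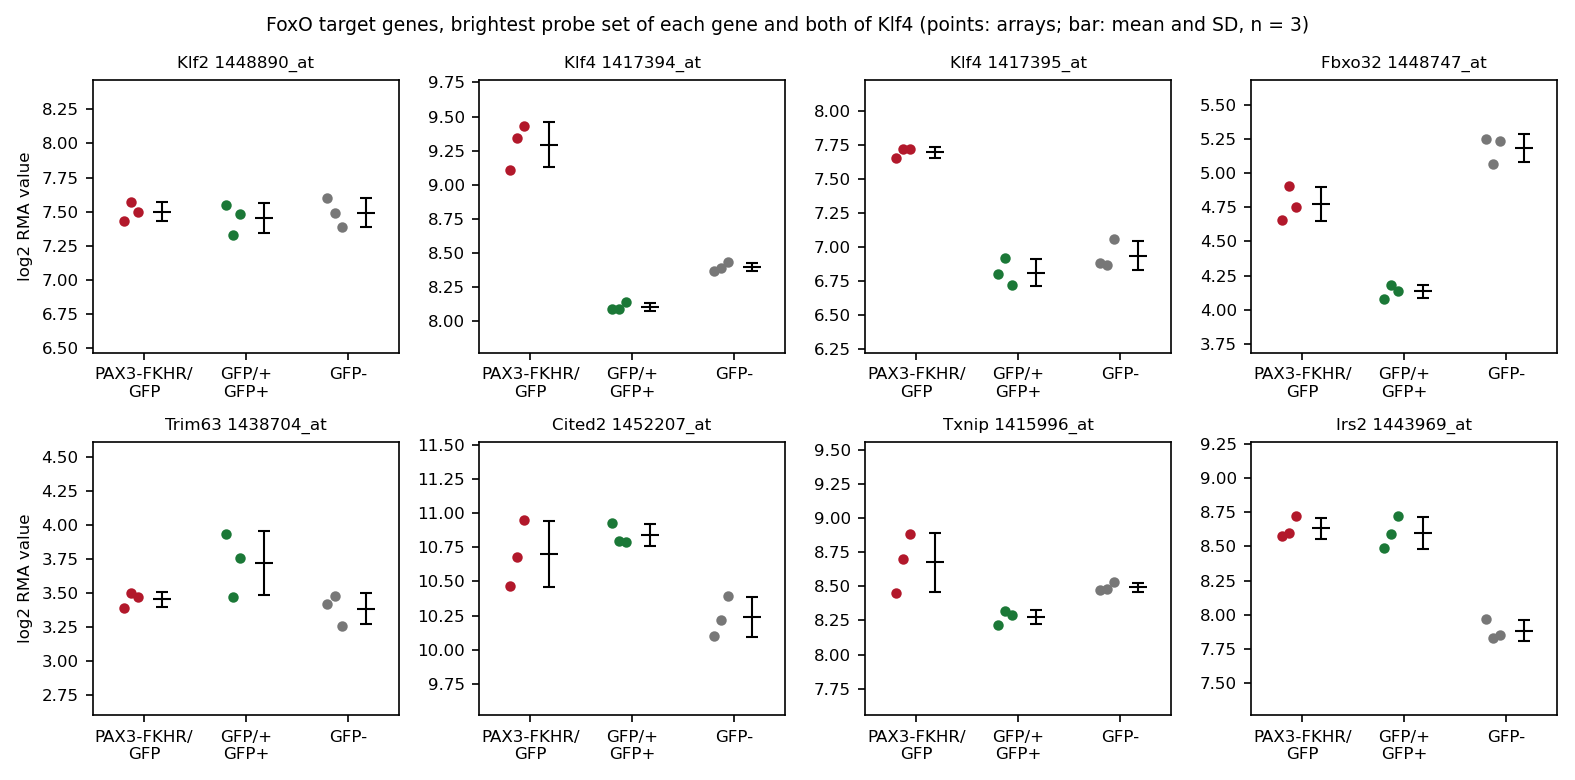
Log2 RMA values (y axis, each panel spanning 2 units) of the brightest probe set of each target gene and of both Klf4 probe sets, with points for the 3 arrays of each group (x axis) and a bar for the mean and SD. Klf4 stood highest in PAX3-FKHR/GFP cells, Fbxo32 and Txnip were lowest in GFP/+ cells, Cited2 and Irs2 were lowest in GFP- cells, and the groups overlapped for Klf2.

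The comparison of GFP/+ with GFP- cells asked which transcripts go with Pax3 expression. Irs2 and Cited2 were higher in the GFP/+ cells, and Fbxo32 was lower. Of the 21 probe sets 3 were called higher and 2 lower, where 1.42% of all tested probe sets were called higher and 3.24% lower. Without the limit on size 11 of the 21 had an adjusted p under 0.05, against 8.76% of all. The GFP/+ arrays lay wholly above the GFP- arrays in 7 and wholly below them in 4, against 12.0% and 11.0% of all probe sets. The median log2 difference was 0.04 over the 21 and 0.02 over all.

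Irs2, the adaptor that carries the insulin and IGF signal from receptor to PI3K, was called higher in both GFP positive groups than in GFP- cells. It read 8.58, 8.60 and 8.72 in PAX3-FKHR/GFP cells, 8.49, 8.59 and 8.72 in GFP/+ cells and 7.97, 7.83 and 7.85 in GFP- cells. GFP/+ cells were 1.64-fold above GFP- cells (0.71 ± 0.074, adjusted p = 0.000146), and PAX3-FKHR/GFP cells were 1.68-fold above them (0.75 ± 0.077, adjusted p = 5.84e-05). Between PAX3-FKHR/GFP and GFP/+ cells the Irs2 difference was 0.03 with a 95% interval of -0.16 to 0.22 (adjusted p = 0.951).

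Cited2, a co-regulator that binds CBP and p300 and limits HIF-1, was called higher in GFP/+ than in GFP- cells. Probe set 1452207_at read 10.47, 10.68 and 10.95 in PAX3-FKHR/GFP cells, 10.93, 10.80 and 10.79 in GFP/+ cells and 10.10, 10.22 and 10.39 in GFP- cells. Cited2 probe set 1421267_a_at read 6.14, 6.35 and 5.94 in PAX3-FKHR/GFP cells, 6.38, 6.34 and 6.42 in GFP/+ cells and 5.80, 5.66 and 5.63 in GFP- cells. On both, each GFP positive array lay above each GFP- array, and the PAX3-FKHR/GFP arrays were more scattered than the GFP/+ arrays. GFP/+ cells were called higher than GFP- cells, by 0.60 ± 0.076 (adjusted p = 0.000616) and 0.68 ± 0.076 (adjusted p = 0.000236). For PAX3-FKHR/GFP against GFP- cells the 2 differences were 0.46 (adjusted p = 0.0383) and 0.45 (adjusted p = 0.0242), under the limit. In 5 of the 6 fits with 1 array left out, the adjusted p was 0.067 to 0.209 on 1452207_at and 0.053 to 0.122 on 1421267_a_at. The remaining fit gave a call on each, without PAX3-FKHR/GFP replicate 1 and replicate 3 respectively. Against GFP/+ cells the differences were -0.14 and -0.23 (adjusted p = 0.784 and 0.502). The 6 neural crest markers measured averaged 8.47 to 8.54 on the GFP/+ arrays and 6.36 to 6.49 on the GFP- arrays, and the part of neural crest cells in the Irs2 and Cited2 differences was not tested.

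Set against GFP- cells, PAX3-FKHR/GFP cells were called higher on 7 of the 21 probe sets and lower on 1, where 1.99% and 3.36% of all were called. The 7 were the 3 bright Foxo1 probe sets, Foxo4 1456753_at, both of Klf4 and Irs2, and the 1 was Fbxo32 1435265_at. Without the limit on size 12 had an adjusted p under 0.05, against 8.95% of all. The arrays lay wholly above in 9 and wholly below in 3, against 11.0% and 10.6%. This comparison shares its arrays with the other 2 and adds no independent samples. It also joins the genotype to the gate, so the fusion and GFP positivity cannot be told apart in it.

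Of 37 measured genes of insulin, PI3K, Akt and FoxO modification, upstream of the FoxO factors, 1 was called higher and 0 lower in PAX3-FKHR/GFP against GFP/+ cells. Gene by gene, from 1 probe set each, 1.31% of all genes were called higher and 0.715% lower, so the count was near that of all genes. The median log2 difference was 0.05 over the list and 0.00 over all genes. The 1 was Irs4, an adaptor of the same family as Irs2, 1.46-fold higher (0.55 ± 0.111, adjusted p = 0.0342). Averaged over all probe sets of the gene, Irs4 differed by 0.37, under the limit. Its call was lost without 5 of the 6 arrays in turn (adjusted p = 0.0748 to 0.222), each except GFP/+ replicate 1.

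Of 41 other FoxO targets, 1 was called higher and 1 lower with the fusion, against 1.31% and 0.715% of all genes. Their median was 0.05, against 0.00 over all genes. Cdkn1a, the cell cycle inhibitor p21, was 1.73-fold lower at 7.70 in PAX3-FKHR/GFP against 8.49 in GFP/+ cells (-0.79 ± 0.080, adjusted p = 0.000391). Tbx3, a T-box repressor that is not among the classical FoxO targets, was 2.16-fold higher at 7.88 in PAX3-FKHR/GFP against 6.77 in GFP/+ cells (1.11 ± 0.112, adjusted p = 0.000389). Among the classical targets not called, the cell cycle inhibitor Cdkn1b differed by 0.29 (adjusted p = 0.309), the pro-apoptotic Bcl2l11 by -0.05 (adjusted p = 0.927) and the mitochondrial superoxide dismutase Sod2 by -0.05 (adjusted p = 0.930). The 39 genes not called ran from -0.35 in Igfbp1, an IGF binding protein (adjusted p = 0.197), to 0.63 in Gadd45a, a growth arrest gene (adjusted p = 0.126). The 5 uncalled genes named here were picked after their values were seen.

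Of 22 paralogues of the members, 3 were called higher and 0 lower, against 1.31% and 0.715% of all genes. Their median was 0.12, against 0.00 over all genes. Besides Irs4, which stands on 2 of the lists, these were the Krüppel-like factors Klf11 (0.68 ± 0.132, adjusted p = 0.027) and Klf15 (0.66 ± 0.099, adjusted p = 0.00553). The Klf11 call was lost without 5 of the 6 arrays in turn, each except GFP/+ replicate 2 (adjusted p = 0.0671 to 0.172), and the Klf15 call without replicate 2 of either group (adjusted p = 0.0509 to 0.0582).

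**Figure D4:**
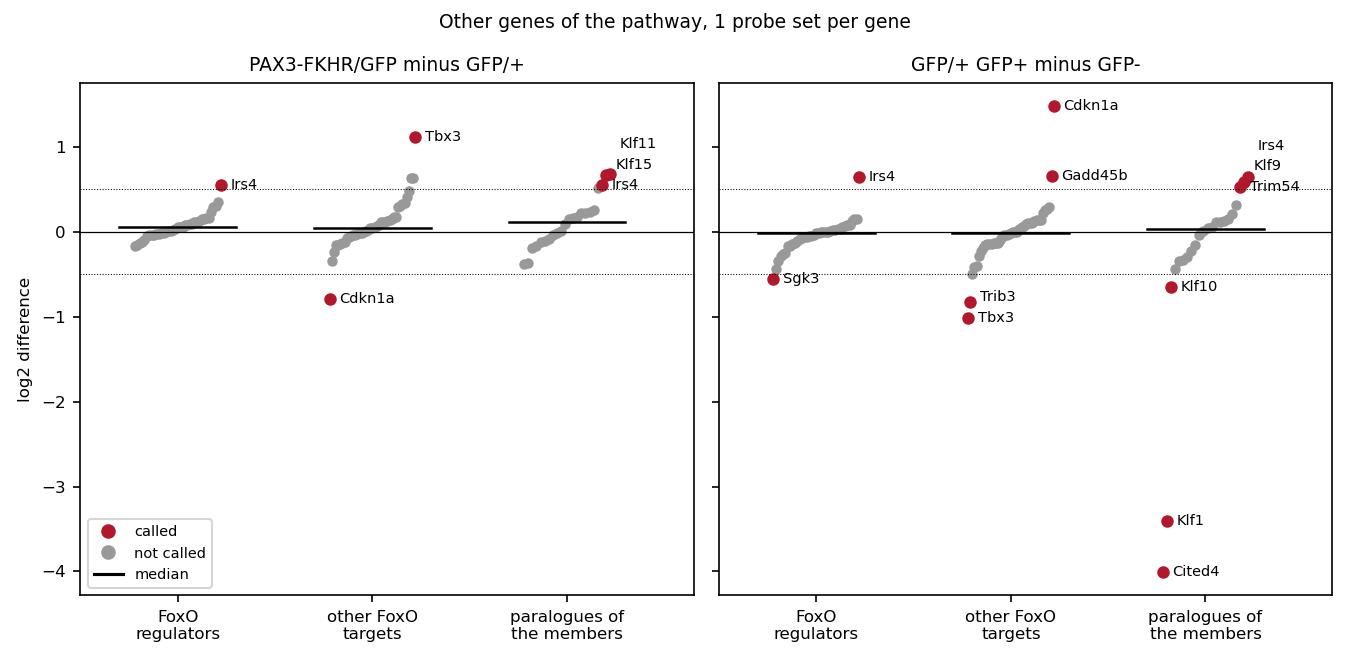
Log2 difference (y axis) of every measured gene of 3 lists (x axis), the FoxO regulators, the other FoxO targets and the paralogues of the members, for PAX3-FKHR/GFP minus GFP/+ and for GFP/+ minus GFP- cells; points within a list are ordered by value, red points are called and named, black bars are medians and dotted lines the limit of 0.5. Most genes lay inside the limit, and Klf1 and Cited4 lay far below it between GFP/+ and GFP- cells.

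Between GFP/+ and GFP- cells 1 of the 37 regulators was called higher and 1 lower, where 1.92% of all genes were called higher and 5.05% lower. Irs4 was higher (0.64 ± 0.104, adjusted p = 0.00333), and Sgk3, a kinase related to Akt, was lower (-0.56 ± 0.073, adjusted p = 0.000763). Among the 41 other targets 2 were called higher and 2 lower. Cdkn1a was 2.78-fold higher at 8.49 in GFP/+ against 7.01 in GFP- cells (1.48 ± 0.069, adjusted p = 4.31e-07), and the stress gene Gadd45b was higher by 0.66 ± 0.149 (adjusted p = 0.0225). Tbx3 was 2.02-fold lower (-1.01 ± 0.094, adjusted p = 6.62e-05), and the Akt-binding pseudokinase Trib3 was lower by -0.83 ± 0.121 (adjusted p = 0.00164). The Gadd45b call was lost without GFP/+ replicate 2 or 3 and without GFP- replicate 1 or 3 (adjusted p = 0.102 to 0.125).

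Among the 22 paralogues 3 were called higher and 3 lower in GFP/+ than in GFP- cells, against 1.92% and 5.05% of all genes. Klf9 (0.58, adjusted p = 0.00191), Trim54, a sarcomere-bound relative of Trim63 (0.53, adjusted p = 0.00342), and Irs4 were higher. Klf10 was lower (-0.65, adjusted p = 0.0021). Averaged over all probe sets of the gene, Klf9 (0.32) and Irs4 (0.34) fell short of the limit, and the Trim54 call was lost without replicate 1 of either group (0.47 at the lowest). Klf1, the erythroid Krüppel-like factor, read 4.81 in GFP/+ and 8.22 in GFP- cells (-3.41 ± 0.111, adjusted p = 3.01e-08). Cited4, a relative of Cited2, read 3.65 in GFP/+ and 7.65 in GFP- cells (-4.00 ± 0.140, adjusted p = 5.27e-08). The 7 primitive erythroid markers, Klf1 among them, averaged 6.09 to 6.13 on the GFP/+ arrays and 9.97 to 10.07 on the GFP- arrays, and the 8 surface ectoderm markers 4.94 to 5.07 on the GFP/+ arrays and 7.73 to 7.78 on the GFP- arrays. The part of either cell type in these differences was not tested.

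For Klf4 and Fbxo32, the members with the largest differences in the 2 main comparisons, the genes most like them over the 9 arrays were listed. For Klf4 1417394_at these were Spry1, an inhibitor of receptor tyrosine kinase signalling, with a Pearson r of 0.988, the AP-1 factor Fosl2 (0.985) and the transporter Slc49a4 (0.983), and 116 of 18192 genes had an r over 0.9. For Fbxo32 1448747_at these were Capn6, a calpain without protease activity (0.986), the matrix protein Npnt (0.986) and the growth factor Gdnf (0.983), with 123 genes over 0.9. The 9 arrays fall into 3 groups, so an r of this kind mostly describes a shared order of the group means.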

How the data were processed

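RNA of 9 samples was read on Affymetrix mouse arrays, 3 in each of 3 groups taken from the labels. The authors deposited log2 values made with RMA, which corrects background, normalizes the arrays to 1 distribution and summarizes each probe set; a shift of all transcripts would not be seen, and the RMA version is not given in the sources used here. The study also dropped probe sets called absent, a filter not applied here. The table holds 45101 probe sets, 64 of them controls that were not tested. In GEO's platform annotation 34945 of the tested ones carry 1 gene symbol, 932 carry several, and 9160 are unnamed here. A gene of a list was read from its brightest probe set.

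Each comparison of 6 samples was fitted with limma 3.58.1 in R 4.3.3 (lmFit, eBayes with an intensity trend) as a two-sided test, and p-values were adjusted by Benjamini-Hochberg over the 45037 probe sets. The code was tested on simulated data. Alternatives were a local pooled error test written for this work with 100 bins and a spline of 10 degrees of freedom, 1 fit of all 9 samples, no trend, the replicate block, brighter probe sets only, renewed quantile normalization, median centring, the mean over a gene's probe sets and leaving out each array. The members and lists were chosen with earlier results of these data known. By rule, all members were named, and from each list the called genes, up to 8, and up to 3 central ones not called; Igfbp1 and Gadd45a were added as the ends of their list's uncalled range. Promoter windows came from RefSeq tables. The number of arrays limits the precision.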

Additional observations from a re-analysis of the deposited data

How the results depend on the processing

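The 21 probe sets gave 273 combinations of a probe set with an alternative or a left-out array in each comparison. With PAX3-FKHR/GFP against GFP/+ 269 combinations kept the call status, 1 lost a call and 3 gained one. For GFP/+ against GFP- cells these were 260, 6 and 7, and for PAX3-FKHR/GFP against GFP- cells 264, 7 and 2. In these combinations 0 calls reversed. Most of the kept ones were uncalled probe sets that stayed uncalled, so these counts say little about the calls themselves. With each array left out, probe sets called higher with PAX3-FKHR/GFP against GFP/+ numbered 3 to 5, with 5 without PAX3-FKHR/GFP replicate 1, where Foxo1 1416981_at and Txnip joined. Probe sets called lower in GFP/+ than in GFP- cells numbered 1 to 2 with each array left out, 1 by the local pooled error test and 1 among the brighter probe sets, against 2. For PAX3-FKHR/GFP against GFP- cells they numbered 0 to 1, 0 by the local pooled error test and 0 among the brighter probe sets, against 1. Each of these losses was Fbxo32 1435265_at, which lies below the array median on most arrays. With the mean over a gene's probe sets 1 member gene, Klf4, was called higher with PAX3-FKHR/GFP against GFP/+, where the brightest probe set called 2. Foxo1 1416983_s_at crossed the limit between GFP/+ and GFP- cells under the local pooled error test (0.52), renewed quantile normalization (0.53) and median centring (0.50).

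Replicate numbers were shared by the groups. The deviations of same-numbered samples correlated between -0.096 and 0.105, and those of differently numbered samples between -0.115 and 0.121. For GFP/+ against GFP- cells the same-numbered samples gave 0.094, 0.062 and 0.009, and the others -0.092 to 0.033. With 3 samples per group these values cannot decide whether same-numbered samples share a preparation. With the replicate block 3 probe sets were called higher and 0 lower for PAX3-FKHR/GFP against GFP/+, 3 and 2 for GFP/+ against GFP- cells, and 7 and 1 for PAX3-FKHR/GFP against GFP- cells, the same counts as without it. The block ended the calls of Irs4 (adjusted p = 0.0597) and Klf11 (adjusted p = 0.0503) with PAX3-FKHR.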
